A study of Mus musculus with 14 samples.

Results

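DNA methylation in mammary adipose tissue of mice that were obese and then underwent vertical sleeve gastrectomy (DIO-VSG) was compared with that of mice that were never obese (CON-LFD). The comparison addresses whether methylation after surgical weight loss matches or departs from that of lean controls. Its members were taken from the group labels alone: 4 DIO-VSG and 3 CON-LFD mice, 7 of the 14 mice of the series, at all 65610 tested sites of the 75761 measured. All mice were female, wild-type C57BL/6N (C57BL/6NCrl in the study's methods), 8 weeks old at arrival. CON-LFD mice received a low-fat diet (10% of kcal from fat) for the whole study and had sham surgery. DIO-VSG mice received a high-fat diet (60% of kcal from fat) for 15 weeks, then had the operation, in which most of the stomach is removed along its greater curvature, and were switched to the low-fat diet. The other groups ate the same high-fat diet for 15 weeks and had sham surgery, after which DIO-HFD mice (n = 4) stayed on it and DIO-LFD mice (n = 3) were switched to the low-fat diet. Their levels are given side by side, and they also enter the filter of sites, the limma fits and a comparison of distances. Every mouse in all 4 groups, controls included, carried an orthotopic E0771 mammary tumor, from cells injected 7 weeks after surgery. Tissue came from the opposite mammary fat pad 4 weeks after injection, so no group here is free of tumor. Past obesity, diet switch and surgery cannot be told apart in DIO-VSG against CON-LFD.

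Methylation of cytosine in CpG dinucleotides is copied at cell division and is a lasting mark of cell type. Promoters within CpG islands are mostly unmethylated in normal tissue, whereas gene bodies and intergenic DNA are mostly methylated. Mammary adipose tissue holds adipocytes, stromal progenitors, vessels, immune cells and epithelial ducts. In a bulk sample, a shift in the share of a cell type and a change of methylation within cells cannot be told apart.

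Reduced representation bisulfite sequencing (RRBS) cuts DNA with MspI, which recognizes CCGG, and reads the ends of short fragments, so that sites within CCGG lie at the fragment ends. The sequences below are given because the results turn on them: the 2 sites past the adjusted threshold (Ctnnb1 and Gm23036), the promoter sites listed at or near 0 in every DIO-VSG mouse (Tmem9b, Metap1 and the first site of Nkiras1), the other end of 2 neighbouring CCGG pairs (Nkiras1 and Prkab2), and 2 sites that were higher in every DIO-VSG mouse and have neighbours that were higher on average (Tirap and Ager). Each is 30 bases of mm10, 5′ to 3′ on the strand of the gene named, with the measured CCGG, or the CpG of Tirap, in capitals. The intervals are chr9:120933357-120933386 (+) for Ctnnb1, chr1:102628856-102628885 (−) for Gm23036, chr7:109752207-109752236 (−) for Tmem9b, chr3:138489138-138489167 (−) for Metap1, chr14:18271325-18271354 and chr14:18271425-18271454 (+) for Nkiras1, chr3:97658516-97658545 and chr3:97658630-97658659 (+) for Prkab2, chr9:35188862-35188891 (−) for Tirap and chr17:34598496-34598525 (+) for Ager.
Ctnnb1: ggactactttccCCGGcccgcccgcgcccc
Gm23036: cttgtgagattatgCCGGtgcctagaaaac
Tmem9b: agccggatcccgagCCGGgcgcggggctcg
Metap1: cgggagcccggccgCCGGcgctctcggggg
Nkiras1, first site: ttggtgtttccaCCGGcgcctcgctccgtg
Nkiras1, second site: gtgtccttaaggCCGGccagggactttgga
Prkab2, first site: gcaggggcggggCCGGggcgcccctgacgc
Prkab2, second site: gcgagcgggtgtCCGGggagcgccacggag
Tirap: agtcgtagtcactgcCGtgtgctgctcatc
Ager: tgaggggactttCCGGtgtcgggcaactaa

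Each value is the methylated share of the reads at a site as the authors called it, as a percent. Whether bases filled in at MspI ends during library preparation were trimmed is not given in the sources used here, so for sites within CCGG, the 2 sites past the threshold included, the level may not be that of the native cytosine. The deposited table gives no read counts, so the depth of each mouse and site is unknown and no counting interval was computed. One library stood apart among those compared: CON-LFD replicate 3 had the lowest mean level of the 7 mice. Over all tested sites and by context, differences in mean level and distance that it moves by over 1.5 times are given with and without it. The same holds for differences at named sites.

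Averaged over all tested sites, methylation after sleeve gastrectomy was close to that of never-obese mice. The mean level was 64.8%, 64.2%, 64.5% and 64.8% in the DIO-VSG mice and 64.3%, 64.1% and 60.6% in the CON-LFD mice. The DIO-VSG mice fell within a narrow range, and CON-LFD replicate 1 lay within it. The group means were 64.6% ± 0.310 (SD, n = 4) and 63% ± 2.11 (SD, n = 3), a difference of 1.56 percentage points that was not past the two-sided exact permutation test (p = 0.114, where the smallest p that 35 splits of 7 mice allow is 0.0571). Without CON-LFD replicate 3 the difference was 0.347 percentage points (exact p = 0.267). The means of DIO-LFD and DIO-HFD mice were 63.1% ± 1.93 (SD, n = 3) and 59.7% ± 4.38 (SD, n = 4). By mouse, DIO-HFD was at 66.2%, 57.2%, 57.6% and 57.6%, so that replicate 1 lay above every DIO-VSG and CON-LFD mouse and the other 3 below all of them.

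By genomic context, DIO-VSG mice were above every CON-LFD mouse in exons, by 2.31 percentage points, and in introns, by 2.07 (exact p = 0.0571 for each, the smallest possible, adjusted p = 0.171 over 6 contexts). Without CON-LFD replicate 3 these differences were 0.622 and 0.620 percentage points. In promoters outside CpG islands the difference was 1.88 percentage points, in CpG islands outside promoters 1.72 and in intergenic DNA 1.05, and without that mouse these were 0.407, 0.257 and 0.299. In promoter CpG islands it was 0.484 percentage points (exact p = 0.686) and changed sign, to -0.386, without CON-LFD replicate 3. Chromosome X, with 3069 tested sites, had a median site difference of 0.108 percentage points, against 1.76 over all sites. Its difference in mean level was 0.115 percentage points and turned to -0.650 without CON-LFD replicate 3. No difference between contexts or chromosomes was tested.

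**Figure D1:**
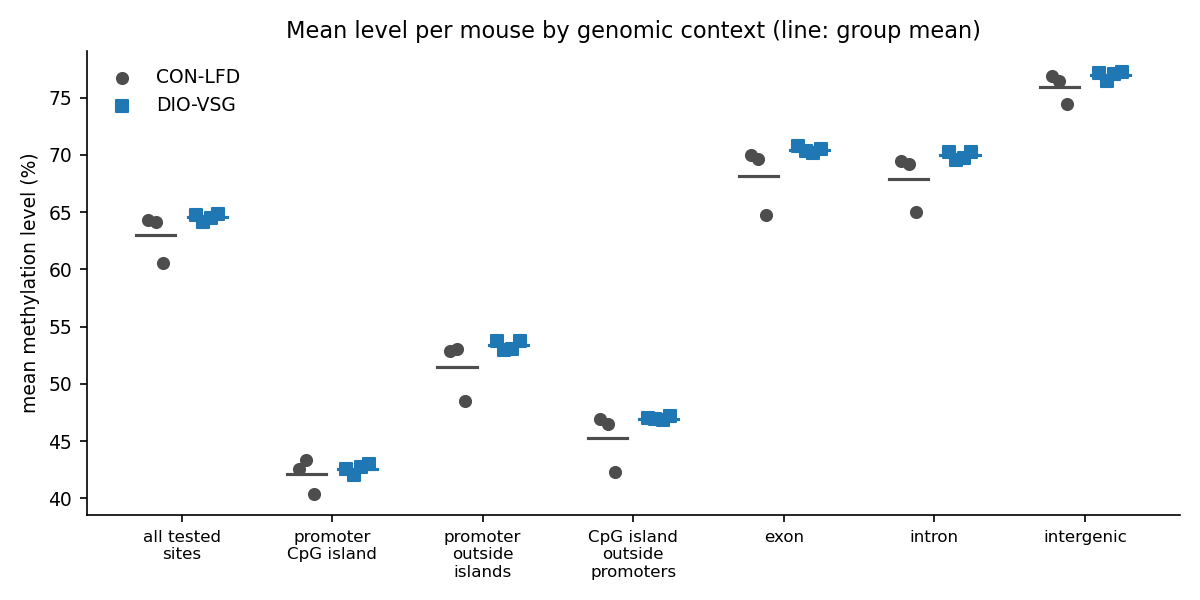
Mean methylation level (%, vertical axis) of each CON-LFD mouse (circles) and DIO-VSG mouse (squares) over all tested sites and by genomic context, with lines at the group means. The 4 DIO-VSG mice cluster between 64.2% and 64.8% over all sites, and 1 CON-LFD mouse, at 60.6%, lies below the others in each context.

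How far the mice lay from each other was measured as the mean absolute difference in level per site. DIO-VSG mice were 6.27 percentage points from each other on average (6.07 to 6.67 over 6 pairs), and CON-LFD mice were 7.97 percentage points from each other (6.65 to 8.67 over 3 pairs). Between the groups the mean distance was 7.42 percentage points over 12 pairs, which is less than the spread among CON-LFD mice. The distance between groups exceeded the mean distance within groups by 0.585 percentage points (two-sided exact permutation test, p = 0.0571, the smallest possible). With 1 mouse left out this excess ranged from 0.220, without DIO-VSG replicate 1, to 1.30, without CON-LFD replicate 2, and it was 0.243 without CON-LFD replicate 3 and 1.19 without replicate 1. The DIO-VSG mice lay nearer to 2 of the CON-LFD mice than those mice lay to the third. From the DIO-VSG mice to CON-LFD replicates 1 and 2 the mean distance was 6.56 percentage points, and to replicate 3 it was 9.13. CON-LFD replicate 3 was 8.58 percentage points from DIO-HFD replicates 2 to 4 and 10.6 from DIO-HFD replicate 1. The spread within DIO-VSG was smaller than that within CON-LFD by an amount that the exact permutation test did not distinguish from 0 (difference of -1.70 percentage points, p = 0.400, and -0.383 without CON-LFD replicate 3).

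Of the 3 groups with past or present obesity, DIO-VSG mice lay nearest on average to the never-obese mice, a comparison chosen after the data were seen and made against the same 3 CON-LFD mice throughout. Their mean distances to the CON-LFD mice were 7.45, 7.54, 7.18 and 7.50 percentage points. The DIO-LFD mice lay at 8.06, 8.72 and 7.56, and the DIO-HFD mice at 8.34, 11.1, 11.4 and 10.8. Every DIO-VSG mouse was nearer than every mouse of the other groups, although DIO-LFD replicate 3 and DIO-VSG replicate 2 were nearly level. The distance of DIO-VSG minus that of DIO-HFD was -3.0 percentage points (7.42 ± 0.163, SD, n = 4, against 10.4 ± 1.41, SD, n = 4, two-sided exact permutation p = 0.0286, the smallest that 70 splits allow, adjusted p = 0.0571 over 2 comparisons). Against DIO-LFD (8.11 ± 0.585, SD, n = 3) it was -0.696 percentage points (exact p = 0.0571, adjusted p = 0.0571). The latter value rested on which CON-LFD mice entered: it was -0.384 without replicate 1 (exact p = 0.229), -0.333 without replicate 2 (exact p = 0.286) and -1.37 without replicate 3 (exact p = 0.0571). The value against DIO-HFD was -4.51 without CON-LFD replicate 3. Without DIO-LFD replicate 2, that against DIO-LFD was -0.392. Neither difference was past the adjusted threshold, and neither could be, since 0.0571 is the smallest adjusted p that these splits allow. At sites outside CCGG the difference from DIO-LFD was -0.524 percentage points (exact p = 0.229), and within CCGG it was -1.12 (exact p = 0.114).

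**Figure D2:**
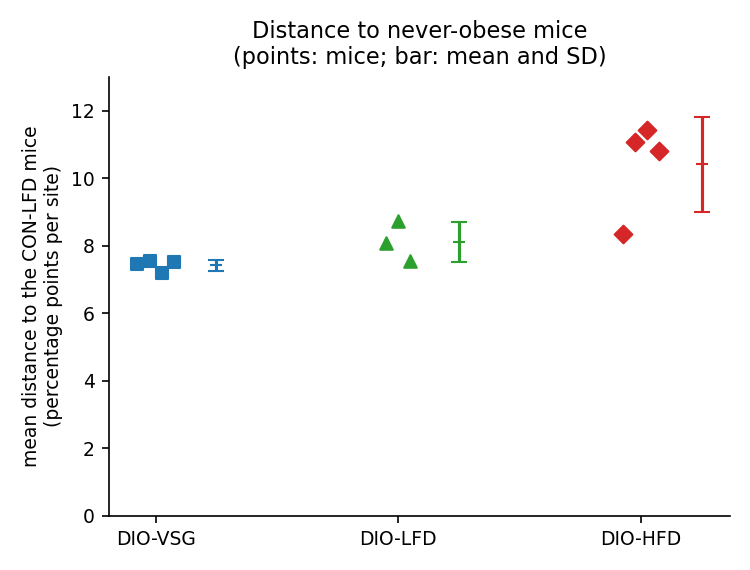
Mean distance of each mouse to the CON-LFD mice (vertical axis, percentage points per site) for DIO-VSG, DIO-LFD and DIO-HFD mice, with the group mean and SD as a bar beside the points. The DIO-VSG mice lie between 7.18 and 7.54, below all DIO-LFD and DIO-HFD mice.

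Site by site, most levels were alike within a wide margin and few differed. At 55658 sites (84.8%) the DIO-VSG and CON-LFD levels were alike within 20 percentage points, by 2 one-sided limma tests with Benjamini-Hochberg adjustment at 0.05. With a margin of 10 percentage points, 0 sites passed, so likeness finer than the wider margin was not shown. The median difference was 1.76 percentage points, with a 5th to 95th percentile range of -7.79 to 10.5. By limma on M values (a log2 ratio of methylated to unmethylated share), 2 sites (0.00305%) had an adjusted p under 0.05. At an unadjusted p under 0.05 were 1874 sites (2.86%), of which 1166 (1.78%) were higher and 708 (1.08%) lower in DIO-VSG. The groups did not overlap at 5766 sites (8.79%): every DIO-VSG mouse was above every CON-LFD mouse at 4208 (6.41%) and below at 1558 (2.37%). A site in these counts can also be alike within 20 percentage points. The named sites of Gm23036, Lpin1, Tgfb1, Il1r1, Dvl1, Sirt6, Esrra, Hoxb9, Dlk1, Pparg, Epcam and Adgre1, given below, were alike within that margin.

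Both sites past the threshold lie within CCGG, and at both every DIO-VSG mouse was at an end of the scale. Ctnnb1 encodes β-catenin, the transcriptional effector of canonical Wnt signaling and a component of cell junctions. Its site, on chromosome 9 of mm10 at 120933370, lies in the promoter CpG island at -30 bp from the transcript start of the table. It was at 14.3%, 30.4% and 11.8% in CON-LFD mice and at 0 in all 4 DIO-VSG mice. Levels were also 0 in all 3 DIO-LFD mice, and 27.6%, 19.3%, 19.7% and 13.5% in DIO-HFD mice, so the CON-LFD mice overlapped the obese mice and the DIO-VSG mice matched the diet-switched ones. The site fell by 18.8 percentage points relative to CON-LFD (log2 M change of -4.50 ± 0.39, SE, limma adjusted p = 0.00221). The neighbouring CCGG sites at 172 and 288 bp did not share this pattern, at 38.6% against 41.1% and 81.7% against 75.4%. Ctnnb1 had 6 tested sites in all.

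Gm23036 is a predicted gene, and the site assigned to it is intergenic, on chromosome 1 at 102628869, -214849 bp from its start. It was at 90.2%, 87.5% and 87.0% in CON-LFD mice and at 100% in all 4 DIO-VSG mice. DIO-LFD mice were at 86.5%, 80% and 95%, and DIO-HFD mice at 82.4%, 81.8%, 76.2% and 76.2%. DIO-VSG was above all other mice, and the rise was 11.8 percentage points (log2 M change of 3.85 ± 0.41, SE, limma adjusted p = 0.0112). The Gm23036 site was thus called different, and it was also among the sites alike within 20 percentage points. Both calls rest on levels of exactly 0 or 100% in every DIO-VSG mouse. With an offset of 0.1 in place of 0.01 in M the adjusted p was 0.415 for Ctnnb1 and 0.984 for Gm23036, and on untransformed levels it was 0.993 for both. With a trended and robust prior it was 0.287 and 0.486, and with the replicate block 0.0598 and 0.201. The Gm23036 call was also lost without CON-LFD replicate 2 (limma adjusted p = 0.0710), CON-LFD replicate 3 (0.0586) or DIO-VSG replicate 1 (0.0555).

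Larger differences in percentage points were found at other CCGG sites in CpG islands, most of them in promoters, which the fit over all 4 groups did not call. Nkiras1 encodes a Ras-like protein that binds the NF-κB inhibitors. Its site on chromosome 14 at 18271338, 204 bp past the transcript start and within a promoter CpG island, was at 44.4%, 55.9% and 52.0% in CON-LFD mice and at 0 in all 4 DIO-VSG mice (limma adjusted p = 0.465). Levels were 0, 48.6% and 0 in DIO-LFD mice and between 42.7% and 48.5% in DIO-HFD mice. The gene Rpl15, on the opposite strand, also overlaps this site. Tmem9b, which encodes a lysosomal membrane protein, showed the same layout at 60 bp past its start, in the untranslated part of exon 1. The levels were 40.7%, 53.9% and 55.6% in CON-LFD mice and 0 in all 4 DIO-VSG mice (limma adjusted p = 0.227), with DIO-LFD mice at 24.4%, 40.3% and 0. Metap1, a methionine aminopeptidase gene, was at 28.9%, 39.6% and 36.6% in CON-LFD mice, and at 2.33% in 1 DIO-VSG mouse and 0 in the other 3. Of all tested sites, 4 were at 5% or less in every DIO-VSG mouse and at 20% or more in every CON-LFD mouse, Nkiras1, Tmem9b and Metap1 among them, and 0 sites showed the reverse.

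In a fit of the DIO-VSG and CON-LFD mice alone, 12 sites passed the threshold, among them Ctnnb1, Gm23036, Nkiras1 (limma adjusted p = 0.000599), Tmem9b (0.000786) and Metap1 (0.0463), all within CCGG. Outside CCGG lay 5 of the 12. Among them were sites assigned to 1700129L04Rik (limma adjusted p = 0.00630), the vomeronasal receptor gene Vmn2r58 (0.0239), Gm45595 (0.0256) and the collagen gene Col12a1 (0.0420). The first lies within Tmem117 and Nell2 and the last in an intron of Col12a1. Those of Vmn2r58 and Gm45595 are intergenic, -30559 and 474909 bp from the gene starts. At each of these sites all mice of 1 group were at exactly 0 or 100%. The differences were 8.51, 16.4, -7.96 and -8.60 percentage points, and the limma adjusted p over all 4 groups was 0.979 for each. The fit of the DIO-VSG and CON-LFD mice alone left out both the DIO-LFD and the DIO-HFD mice, and the cause of its higher count was not tested. At Ism1, which encodes the secreted protein isthmin, at Kif27, a kinesin gene, and at an island site assigned to Gm26140 that lies in the pseudogene Gm20472, DIO-VSG mice lay below all CON-LFD mice but far apart from each other. Ism1 was at 45.5%, 0, 0 and 54.8% in DIO-VSG mice against 58.6%, 63.8% and 100% in CON-LFD mice. Kif27 was at 9.52%, 5.88%, 0 and 41.4% against 47.4%, 53.3% and 41.9%. Gm26140 was at 0, 13%, 20% and 42.1% against 54.5%, 63.6% and 47.5%.

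**Figure D3:**
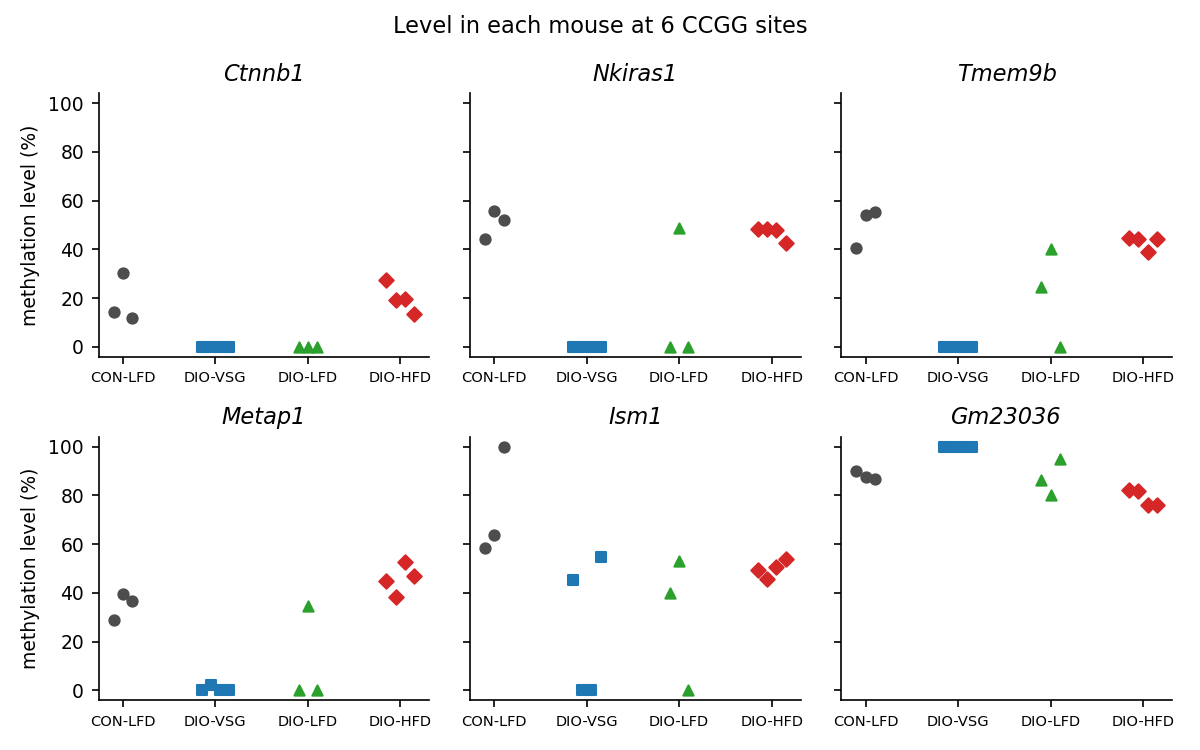
Methylation level (%, vertical axis) in each mouse of the 4 groups at 6 sites within CCGG. DIO-VSG mice sit at or near 0 at Ctnnb1, Nkiras1, Tmem9b and Metap1 and at 100% at Gm23036, while DIO-LFD mice at Nkiras1, Tmem9b and Metap1 hold both kinds of value. At Ism1 the DIO-VSG mice are spread from 0 to 54.8%.

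Promoter CpG islands are where CCGG sites are concentrated and where their levels are unusual. Of the tested promoter-island sites 59.9% lie within CCGG, against 29.1% of all tested sites. Their levels had a median of 50.0%, against 26.7% at the other promoter-island sites. In promoter islands, neighbouring CCGG sites 30 to 220 bp apart, which can be the 2 ends of an MspI fragment, had levels that added up to nearly 100%. Elsewhere the median sum of such pairs was 103.1% in other islands, 106.5% in other promoters, 150.1% in exons, 149.2% in introns and 154.5% in intergenic DNA. Over 1472 such pairs in promoter islands the median sum was between 97.8% and 99.3% in every one of the 14 mice, and the quartiles over pairs and mice were 93.9% and 102.8%. Pairs outside CCGG in the same islands had sums with a median of 49.4% and quartiles of 29.2% and 79.4%. The DIO-VSG minus CON-LFD differences of the paired sites had opposite signs in 72.1% of promoter-island pairs within CCGG and in 27.1% of those outside. Where both CCGG sites of a promoter-island pair differed by at least 10 percentage points, 94 of 102 pairs went in opposite directions, against 0 of 7 outside CCGG. These counts were made after the data were seen and describe sites, not replicates.

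The named promoter sites follow this layout in part. At Nkiras1 the second CCGG site, 100 bp on, was at 50.0%, 50.0%, 63.6% and 72.7% in DIO-VSG mice and at 35.3%, 37.3% and 37.5% in CON-LFD mice, higher where the first was lower. The sums of the 2 Nkiras1 sites were 50.0%, 50.0%, 63.6% and 72.7% in DIO-VSG mice, below 100%, and 79.7%, 93.2% and 89.5% in CON-LFD mice. The CCGG site -102 bp from that of Metap1 was not higher on average, at 42.2% ± 21.6 (SD, n = 4) against 44.6% ± 11.1 (SD, n = 3), with overlap. Prkab2, which encodes a regulatory subunit of AMP-activated protein kinase, the cellular energy sensor, was at 0, 0, 0 and 45.0% at its first site in DIO-VSG mice and at 100%, 90.0%, 100% and 47.5% at its second, 114 bp away. Its CON-LFD mice were at 35.3%, 53.0% and 54.3% at the first and 62.9%, 43.8% and 42.9% at the second. At 12 promoter-island pairs both sites differed by 20 percentage points or more, and at all 12 the sites moved in opposite directions. Among them were those at Fam19a2, Arid4a, Nkiras1, Dnajc9, Lats2, Tiparp, Gm37256, Prkab2, Papd5, Rfx7 and Dhx30, a list chosen after the values were seen. The part that this pairing has in the differences at single promoter-island CCGG sites, the Ctnnb1 call included, was not tested. Averaged over the 4727 promoter-island CCGG sites, the difference was -0.293 percentage points (exact permutation p = 0.571), and -0.576 without CON-LFD replicate 3 (exact permutation p = 0.400). The number of these sites listed at 0 was 98, 255, 103 and 58 in the DIO-VSG mice and 105, 35 and 95 in the CON-LFD mice, which overlap.

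**Figure D4:**
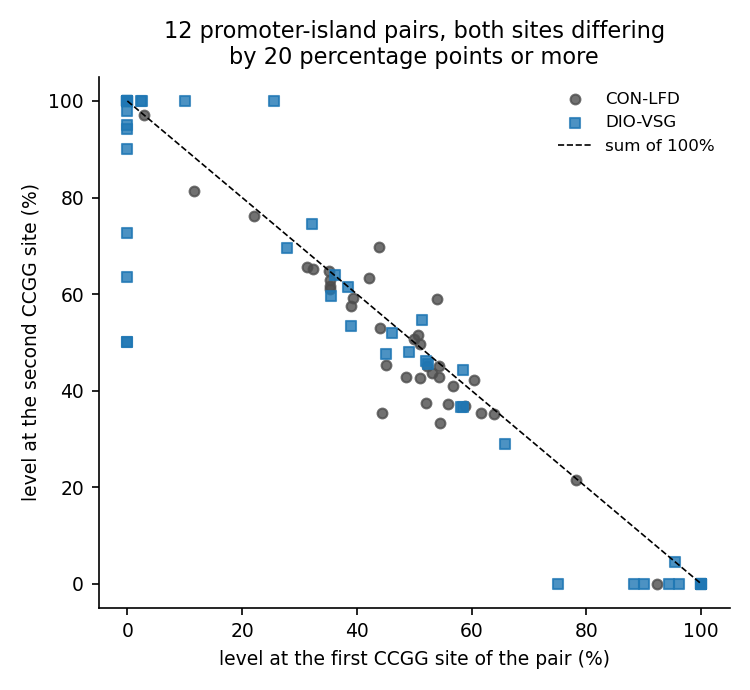
Level at the second CCGG site (vertical axis, %) against the level at the first (horizontal axis, %) for 12 promoter-island pairs in each CON-LFD mouse (circles) and DIO-VSG mouse (squares), with a dashed line at a sum of 100%. Most CON-LFD points gather near the middle of the line, and many DIO-VSG points lie at 0 on either axis.

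Large differences were rare and ran both ways. At least 20 percentage points separated the group means at 220 of 65610 sites, 124 higher and 96 lower in DIO-VSG, and the groups did not overlap at 66 of the higher and 35 of the lower sites. Of the 96 lower sites, 42 were promoter-island CCGG sites, and of the 124 higher sites, 32 were.

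Of the higher sites without overlap, taken 1 per gene, the 6 with the largest differences were those of Tirap, Slc44a3, Ager, Gm25312, Gm28240 and Platr13. Tirap encodes the adaptor that links Toll-like receptors 2 and 4 to MyD88. A CpG in the coding part of its exon 6, on chromosome 9 at 35188875, was at 88.9%, 100%, 88.9% and 70% in DIO-VSG mice and 55.4%, 55.8% and 28.1% in CON-LFD mice. The groups did not overlap, and the difference of 40.5 percentage points had a limma adjusted p of 0.979. The sites 30 bp before and 12 bp after it differed the same way, by 24.7 (15.2 without CON-LFD replicate 3) and 33.3 percentage points. The antisense gene Gm39318 overlaps this exon.

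Ager encodes the receptor for advanced glycation end products, a pattern recognition receptor. Its site within CCGG in the coding part of exon 3, on chromosome 17 at 34598509, was at 55.6%, 47.5%, 48.5% and 72.2% in DIO-VSG mice and 20%, 32.1% and 25% in CON-LFD mice. DIO-LFD mice were at 57.9%, 36.4% and 49.2%, above every CON-LFD mouse and overlapping the DIO-VSG mice. DIO-HFD replicates 2 to 4 were at 23.1%, 24.2% and 23.5%, near CON-LFD, and replicate 1 was at 53.6%. Over the region of 4 tested sites from chr17:34598267-34598509, the mean level was 36.3% ± 3.29 (SD, n = 4) in DIO-VSG and 18.9% ± 7.77 (SD, n = 3) in CON-LFD mice. Slc44a3, a choline transporter-like gene, was at 28.6%, 62.5%, 42.9% and 34.5% in DIO-VSG mice and 0, 22.0% and 11.9% in CON-LFD mice in its promoter island. The site assigned to Gm25312, which lies within Catspere2, and the intergenic sites assigned to Gm28240 and Platr13 were higher by 28.9, 28.8 and 28.3 percentage points.

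Over regions of neighbouring sites, no difference passed the threshold. Of 7141 regions with at least 3 tested sites, 0 (0.00%) had a limma adjusted p under 0.05, and the lowest adjusted p was 0.930. At an unadjusted p under 0.05 were 128 (1.79%), 83 higher (1.16%) and 45 lower (0.630%). Every DIO-VSG mouse was above every CON-LFD mouse in 645 regions (9.03%) and below in 184 (2.58%). Among the regions with the smallest p that were higher in DIO-VSG, one assigned to Rgs2, a regulator of G protein signaling, was at 91.0% ± 3.39 (SD, n = 4) against 79.2% ± 5.47 (SD, n = 3), in intergenic DNA. An intergenic one assigned to Aoah, which encodes an enzyme that inactivates bacterial lipopolysaccharide, was at 91.2% ± 2.21 against 82.2% ± 7.32. One at the start of Fhl1, a LIM domain gene on chromosome X, was at 41.5% ± 6.58 against 25.4% ± 7.25, with overlap between the groups. An intergenic region assigned to Gm24064 was at 95.5% ± 1.77 against 88.7% ± 2.62.

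Among the regions with the smallest p that were lower, one in an intron of Col12a1, a fibril-associated collagen gene, was at 2.17%, 2.50%, 0 and 1.32% in DIO-VSG mice and 6.65%, 7.19% and 11.6% in CON-LFD mice. The groups did not overlap, and DIO-HFD mice were at 8.16% to 16.7%. A region that the table assigns to 4930588K23Rik lies within Tbx1, a T-box transcription factor gene, and was at 23.3% ± 1.76 (SD, n = 4) against 36.8% ± 4.29 (SD, n = 3). One assigned to Scx lies within Mroh1 and was at 57.7% ± 4.24 against 69.7% ± 3.70. One assigned to Gm12198 lies in an intron of Adamts2, which encodes a procollagen peptidase, and was at 42.9% ± 2.30 against 54.2% ± 1.13. The regions assigned to Gm5941, within Mageb18, and, in intergenic DNA, to Ltbp1, a latent TGF-β binding protein gene, were at 89.2% ± 4.80 against 97% ± 2.21 and at 92.9% ± 1.55 against 97.5% ± 1.07.

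In genes of adipose metabolism few sites differed. Of 62 adipocyte and lipid genes, 30 had a tested site, and 189 of their 215 sites (87.9%, beside 84.8% of all sites) were alike within 20 percentage points. In these genes 1 site was higher and 2 were lower at an unadjusted p under 0.05 (1.40%, beside 2.86% of all sites), with a median difference of 1.71 percentage points. A site assigned to Fabp5, a fatty acid binding protein gene, was at 95.5% ± 5.67 (SD, n = 4) in DIO-VSG and 83.6% ± 7.16 (SD, n = 3) in CON-LFD mice, -45376 bp from its start. One assigned to Lpin1, a phosphatidate phosphatase gene, was at 81.8% ± 2.42 against 89.4% ± 4.29. Pparg, the master regulator of adipogenesis, had 1 tested site, in its promoter island, at 0 in the 3 CON-LFD mice and at 0, 4.17%, 0 and 23.1% in DIO-VSG mice. Of the 20 adipocyte markers, 7 had a tested site, and 0 of 36 sites had an unadjusted p under 0.05, beside 2.86% of all sites. The intronic site of Lipe, which encodes hormone-sensitive lipase, was at 85.1%, 88.4%, 85.4% and 84.0% in DIO-VSG mice, 78.6%, 74.5% and 73.7% in CON-LFD mice, and 83.3%, 56.3%, 51.3% and 46.7% in DIO-HFD mice. Every DIO-VSG mouse was above every CON-LFD mouse at that site, as was DIO-HFD replicate 1, and the other 3 DIO-HFD mice were below. At another of the 5 Lipe sites every DIO-VSG mouse was below every CON-LFD mouse.

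Among 31 insulin and nutrient sensing genes with a tested site, 5 of 261 sites (1.92%, beside 2.86% of all sites) had an unadjusted p under 0.05, 2 higher and 3 lower. They were both Prkab2 sites, 2 sites of Foxo3 and a promoter-island site of Grb10, an imprinted adaptor that restrains insulin receptor signaling, at 28.2%, 22.2%, 14.5% and 9.09% in DIO-VSG mice against 5.17%, 6.56% and 0 in CON-LFD mice. An intronic site of Foxo3, a transcription factor restrained by insulin, was at 9.94% ± 6.69 (SD, n = 4) against 27.0% ± 18.8 (SD, n = 3), a difference of -17.1 percentage points that was -7.21 without CON-LFD replicate 1. Of 82 inflammation gene sites and 190 extracellular matrix gene sites, 0 had an unadjusted p under 0.05, beside 2.86% of all sites. With 1 mouse left out the counts were up to 3 and 7. DIO-VSG mice were all above the CON-LFD mice at 4 (4.88%) and 12 (6.32%) of these sites, beside 6.41% of all sites. They were all below at 3 (3.66%) and 4 (2.11%), beside 2.37%. The median differences of the 2 lists were 3.11 and 2.57 percentage points. Among their sites with the smallest p, an intronic one of Mmp14, which encodes a membrane-bound collagenase, was at 58.2% ± 2.82 in DIO-VSG mice and 44.2% ± 11.4 in CON-LFD mice, a difference of 13.9 percentage points that was 7.39 without CON-LFD replicate 3, and one of Lama5, a laminin gene of basement membrane, was at 83.2% ± 0.975 against 71.7% ± 9.58. In the other direction, a site in the promoter CpG island of Tgfb1, which encodes a growth factor that drives matrix deposition, was at 92.1% ± 6.53 against 98% ± 3.46, a difference of -5.89 percentage points that was -3.54 without DIO-VSG replicate 3.

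In the Wnt pathway 43 genes had a tested site, and 9 of their 384 sites (2.34%, beside 2.86% of all sites) had an unadjusted p under 0.05, 5 higher and 4 lower. Ctnnb1 was the 1 site past the adjusted threshold. An exonic site of Dvl1, which relays the Wnt signal from Frizzled receptors, was at 85.4% ± 2.26 (SD, n = 4) against 73.8% ± 1.1 (SD, n = 3), with no overlap. In an island of Wnt1 a CCGG site was at 38.6% ± 5.41 against 17.4% ± 15.2. Nuclear receptor genes had 11 of 479 sites (2.30%, again beside 2.86%) at an unadjusted p under 0.05, 6 higher and 5 lower. An intronic site of Esr1, the estrogen receptor α gene, was at 88.9%, 91.8%, 93.3% and 85.0% in DIO-VSG mice and 80.7%, 70.8% and 76.7% in CON-LFD mice. A promoter-island CCGG site of Esrra, which encodes estrogen-related receptor α, a regulator of mitochondrial genes, was at 73.6% ± 1.18 against 83.8% ± 7.12. The difference was -10.2 percentage points, and -6.69 without CON-LFD replicate 1, and the site was alike within 20 percentage points. At the other tested Esrra site, -110 bp from it and also within CCGG, every DIO-VSG mouse was above every CON-LFD mouse. The difference there was 7.55 percentage points (limma unadjusted p = 0.0160).

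Developmental and imprinted genes had sites in both directions. Hox genes had 6 of 221 sites (2.71%, beside 2.86% of all sites) at an unadjusted p under 0.05, 2 higher and 4 lower. The site of Hoxd11 at -1000 bp from its start was at 5.41%, 13%, 16.7% and 7.14% in DIO-VSG mice and 38.5%, 26.5% and 23.7% in CON-LFD mice, and CCGG sites assigned to Hoxc8, upstream of it within Hoxc5, and to Hoxb9 were at 88.0% ± 6.12 against 99.2% ± 0.713 and at 87.3% ± 2.88 against 95.4% ± 4.48. Imprinted genes had 7 of 225 sites (3.11%, beside the same 2.86%), 2 higher and 5 lower. Of 31 tested sites assigned to Cdkn1c, the maternally expressed inhibitor of cyclin-dependent kinases, 4 were lower at an unadjusted p under 0.05, beside 1.08% of all sites. They are upstream of the gene, in intergenic DNA, and too close together to count as separate observations, from -22 to 2 bp of the site with the smallest p. That site, at -4220 bp from the gene's start, was at 14.4%, 16.4%, 12.4% and 12.8% in DIO-VSG mice and 36.1%, 30.3% and 17.6% in CON-LFD mice. At the site 2 bp on, the difference of -13.1 percentage points was -7.97 without CON-LFD replicate 1. A CpG in the coding sequence of Dlk1, which encodes the preadipocyte factor that inhibits adipogenesis, was at 66.4% ± 7.16 against 55.5% ± 2.50. Chromatin and DNA methylation genes had 6 of 140 sites (4.29%, beside 2.86% of all sites), 3 higher and 3 lower, among them CCGG sites of Jarid2 (75.9% ± 7.55 against 91.1% ± 7.85) and Sirt6 (89.2% ± 4.72 against 97.6% ± 2.10).

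Sites of cell type markers describe methylation, not expression, and the labelled tissue was not checked against marker expression, since expression was not analysed here. Stromal progenitor markers had 6 of 103 sites at an unadjusted p under 0.05 (5.83%, beside 2.86% of all sites), all higher in DIO-VSG, and all 6 belong to Pi16, which marks adipose stromal progenitors. The Pi16 site with the smallest p, in an intron, was at 90.6%, 91.4%, 87.2% and 88.6% in DIO-VSG mice and 80%, 82.5% and 69.1% in CON-LFD mice, and every DIO-VSG mouse was above every CON-LFD mouse at 11 of the 30 Pi16 sites, beside 6.41% of all sites. At the neighbouring Pi16 sites -13, 2, 62 and 114 bp from it the difference was over 1.5 times smaller without CON-LFD replicate 3, and at the site -16 bp from it a difference of 2.54 percentage points turned to -2.41. Over the other members of the list the median differences went both ways, at -3.28 percentage points over the 7 sites of the progenitor receptor gene Pdgfra, -3.70 over the 2 of Cd34 and -1.61 over the 3 of Gli1, against 3.45 over the 28 of Pdgfrb, 7.0 over the 2 of Thy1, 5.18 over the 7 of Tagln and 2.62 over the 3 of Des. Cspg4, a pericyte gene of the same list, had 21 sites with a median difference of 3.0 percentage points, 2 without overlap in each direction. The one with the smallest p was at 39.8% ± 3.47 against 52.2% ± 7.01, and the site -22 bp from it at 42.5% against 34.4%. Endothelial markers had 2 of 46 sites (4.35%, beside 2.86%), both in Sox17, a transcription factor of arterial endothelium. The Sox17 CCGG site in the coding region was at 8.33%, 9.38%, 13% and 3.33% in DIO-VSG mice and 33.3%, 40.5% and 28.6% in CON-LFD mice, and a site -159 bp from it was at 33.3%, 16.7%, 16% and 6.45% against 2.38%, 2.38% and 6.25%. Lymphocyte markers had 1 of 32 sites (3.12%, again beside 2.86%), an intergenic site assigned to Cd3e (62.7% ± 9.14 against 79.7% ± 1.71). Every DIO-VSG mouse was below every CON-LFD mouse at 4 of the 32 (12.5%, beside 2.37% of all sites), 3 of them in Lat, and above at 0 (beside 6.41%). The list's median difference was 1.36 percentage points, that of the 11 Lat sites 1.63 and that of the 9 Cd37 sites 11.3. Besides Cd3e, the other members were at -8.26 (Ikzf1), -7.74 (Coro1a), -3.76 (Rac2), -2.02 (Prf1), -1.66 (Cd79b) and 0.840 (Zap70). At the Lat site with the smallest p DIO-VSG mice were at 15% ± 1.05 and CON-LFD mice at 25.3% ± 7.64, a difference of -10.2 percentage points that was -5.84 without CON-LFD replicate 3. Mammary epithelial markers (76 sites) and macrophage and myeloid markers (12 sites) had 0 sites at an unadjusted p under 0.05, beside 2.86% of all sites. Among the epithelial markers Epcam was at 69.8% ± 4.38 against 61.9% ± 2.90. Esrp1 was at 50.0% ± 13.7 against 62.4% ± 8.63, a difference of -12.4 percentage points that was -8.05 without CON-LFD replicate 3 and -6.01 without DIO-VSG replicate 1. DIO-VSG mice were all above the CON-LFD mice at 3 of the 76 epithelial sites (3.95%, beside 6.41% of all sites) and all below at 0. At the 12 macrophage and myeloid sites they were all above at 2 (16.7%), both assigned to Mpo, and all below at 0. Adgre1 was at 98.0% ± 2.31 against 90.5% ± 5.98 (a difference of 7.54 percentage points, and 4.94 without CON-LFD replicate 2), and the 1 site of Elane differed by -7.57 percentage points. The site assigned to Mpo lies in a coding exon of Tspoap1 and was at 77.8% ± 2.68 against 61.8% ± 11.6, a difference of 16 percentage points that was 9.88 without CON-LFD replicate 3. The part of cell composition in these values was not tested. By limma 0 sites of any list other than that of Ctnnb1 had an adjusted p under 0.05.

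**Figure D5:**
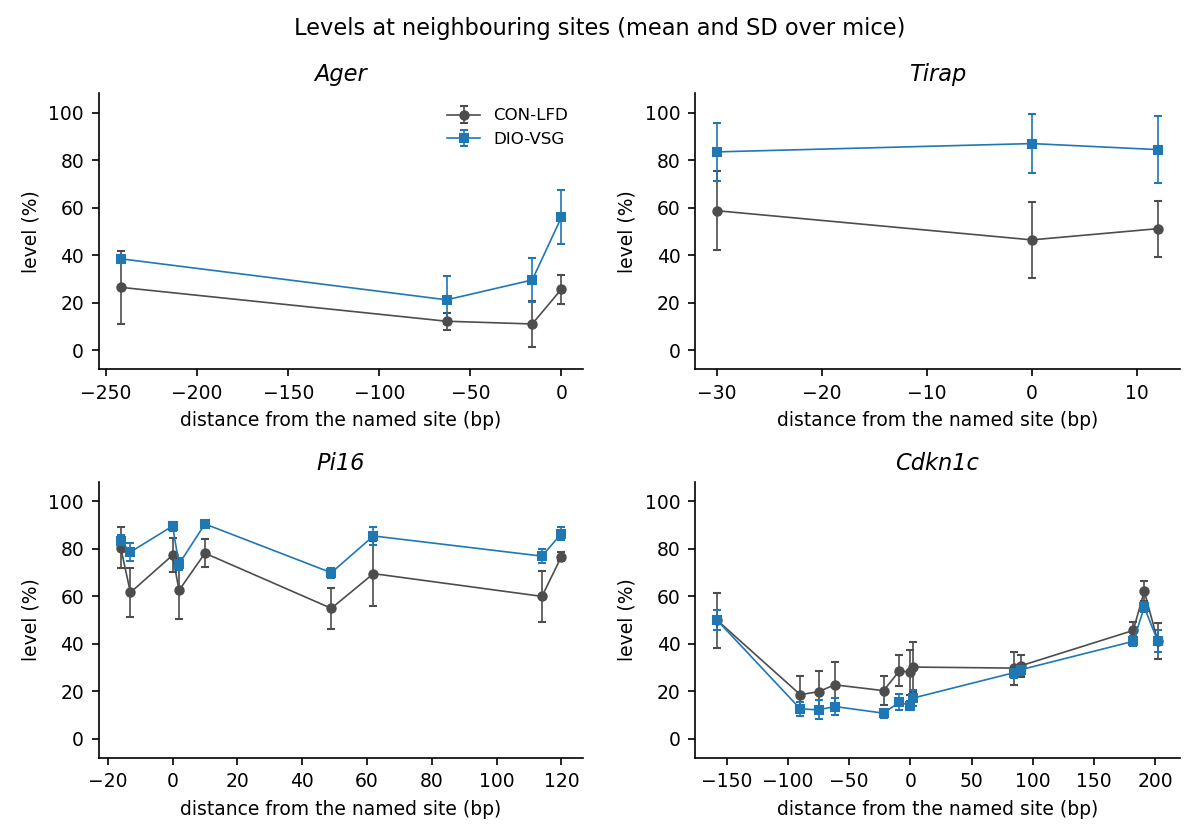
Methylation level (%, vertical axis, mean and SD over mice) at measured sites within 300 bp of the named site of Ager, Tirap, Pi16 and Cdkn1c against the distance from that site (bp). The group means of DIO-VSG (squares) lie above those of CON-LFD (circles) through Ager, Tirap and Pi16 and at or below them through Cdkn1c, but the order turns at -16 bp of Pi16 without CON-LFD replicate 3 and at -158, 85, 90 and 202 bp of Cdkn1c without CON-LFD replicate 1.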

How the data were processed

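The authors aligned RRBS reads to mm10 with Bismark, called methylation with methylKit, filtered bases on variability and coverage, left out 2 outlier mice, and deposited the methylation level as a fraction per site and mouse, with no read counts. Fractions were used as percents, and all 75761 sites had 0 missing levels. Sites with an SD of at least 0.05 over the 14 mice were tested (10151 others in the deposited table lay below it). Limma 3.58.1 in R 4.3.3 was fitted to M = log2((b + 0.01)/(1 − b + 0.01)) over all 4 groups, with Benjamini-Hochberg adjustment over all tested sites. Regions joined sites at most 200 bp apart. Single values were tested by two-sided exact permutation. Python 3.11.15 was used, and the fits were tested on simulated data. Each mouse is a separate animal.

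Named sites were up to 5 past the threshold and the 6 largest non-overlapping differences in each direction (unadjusted p under 0.05, 1 site per gene), named regions the 6 with the smallest p in each direction, and named list genes the 3 with the smallest p per list. Of the 57 sites and 12 regions that this rule gives, 12 and 1 are left out here, and others are said to be chosen after their values were seen or stand beside a named site. Genes are those the table assigns, by nearest transcript, with coding and exon positions from GENCODE M21 on mm10. Sequences were read from mm10 (GRCm38). The groups, gene lists and tests were chosen with earlier results of these data known. Replicate numbers did not pair the mice: deviations of same-numbered CON-LFD and DIO-VSG mice had correlations of 0.0362, -0.0397 and 0.0341. Alternatives were other offsets, scales, filters, margins, groups in the fit, a replicate block and leaving out each mouse.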

Additional observations from a re-analysis of the deposited data

Results flagged for a closer look

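Within the 4 DIO-VSG mice, 1 mouse stood apart, relative to the range of the 4, at 6 named sites and 2 named regions of the 69 groups examined. Without ties, chance flags about 1 in 20, or 3.45. The measure is the gap to the nearest mouse divided by the range. It was 1 at Gm28240 (87.1% against 100% in the other 3 mice), Metap1 (2.33% against 0), Prkab2 (45.0% against 0) and Il1r1 (97.7% against 100%), where the other 3 mice are tied. With such a tie the measure is 1 however small the gap, so the chance rate does not cover these 4 sites. It was 0.836 at the Mmp14 site, 0.913 at the Hoxc8 site (97.2% against 84.4% to 85.6%), 0.887 in the Gm24064 region and 0.932 in the Ltbp1 region.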

How the results depend on the processing

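The count of sites past the adjusted threshold, 2 in the fit as reported, was 0 with an offset of 0.1, 1 (Tmem9b) on levels in place of M, 0 with a trended and robust prior, 12 with only the 2 groups compared, 0 with the replicate block and 0 at sites outside CCGG. With 1 mouse left out it ranged from 1 (without DIO-VSG replicate 1) to 10 (without DIO-LFD replicate 2), with 9 without DIO-VSG replicate 2 and 8 without CON-LFD replicate 1. With the replicate block, the adjusted p was 0.0598 for Ctnnb1 and 0.201 for Gm23036. Ctnnb1 stayed past the threshold with each mouse left out in turn, and Gm23036 did not without CON-LFD replicate 2 (0.0710), CON-LFD replicate 3 (0.0586) or DIO-VSG replicate 1 (0.0555). The count at an unadjusted p under 0.05, 1874, was 4282 with only the 2 groups, 307 with an SD of at least 0.1, 590 within CCGG, and 1652 to 3616 with 1 mouse left out, the highest without DIO-HFD replicate 1. The count of sites alike within 20 percentage points, 55658, was 0 with a margin of 10 percentage points, 0 with an SD of at least 0.1 and 17224 within CCGG. The count of sites without overlap, 5766, was 1705 with an SD of at least 0.1, 1397 within CCGG and 8075 to 13523 without 1 CON-LFD or DIO-VSG mouse, over 1.5 times higher without any CON-LFD mouse or DIO-VSG replicate 2 or 3, where fewer mice make overlap rarer. The mean difference in promoter CpG islands reversed, to -0.293 percentage points within CCGG and -0.386 without CON-LFD replicate 3, with -0.386 to 1.13 over the mice left out. The mean difference over all sites, 1.56 percentage points, was 3.21 with an SD of at least 0.1 and 0.688 within CCGG (0.0537 there without CON-LFD replicate 3). The excess of the distance between groups, 0.585, was 1.23 with an SD of at least 0.1 and 0.292 within CCGG (exact p = 0.114). By context, the differences were 0.769 to 4.34 percentage points with an SD of at least 0.1 and -0.293 to 1.56 within CCGG. The distance to CON-LFD mice against DIO-HFD, -3.0 percentage points, was -5.96 with an SD of at least 0.1, -1.37 within CCGG (exact p = 0.0571) and -4.51 to -2.21 with 1 mouse left out, where with 1 mouse fewer in a compared group 0.0571 is the smallest p. The difference in spread within groups, -1.70, was -3.41 with an SD of at least 0.1 (exact p = 0.743) and -0.680 within CCGG. Sites outside and within CCGG, that distance and the pairs of CCGG sites were chosen after seeing the data. Named sites and regions kept their direction under all alternatives run. The cause of these changes was not tested.

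Depth is unknown, so levels of exactly 0 or 100% can come from few reads. Of the measured positions 12 have no CpG in mm10, and of the tested ones 19 lie on chromosome Y, in female mice.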
